A study of Homo sapiens with 6 samples.

Results

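Copying a genome takes a set of proteins that license and open origins, synthesize and ligate DNA, supply nucleotides and repack the copies into chromatin. The mRNAs of 49 genes with these roles were described in T47D breast cancer cells that carried a prolactin (PRL) lentivirus and in T47D cells that carried the empty lentivirus. The 49 genes were chosen by symbol, as named genes of replication origins, forks, chromatin assembly and nucleotide synthesis. The rule itself used no measured value, but the genes were chosen with earlier results of these data known. All 49 symbols were found, each on 1 line, among 17891 genes in the deposited table, and all 49 passed the filter on low counts.

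T47D is an established human breast cancer line of luminal type. The tested cells were T47D-PRL, made with a PLVX-puro lentivirus that carries PRL, and the controls were T47D-PLVX, made with the same vector without the insert. Both kinds of cell thus went through transduction and screening, and no untransduced parent line was analysed here. Cells of both groups had grown for 2 days in RPMI1640 with fetal bovine serum before Trizol extraction, with no further treatment. The design text gives 3 biological replicates in each group. Whether a line was 1 clone or a pool of transduced cells, and what separates the replicates, is not given in the sources used here. If the replicates are cultures of 1 line per group, the p-values measure spread between cultures and not between transductions. An effect of PRL then cannot be told apart from another difference between the lines.

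Before S phase, the origin recognition complex, CDC6 and CDT1 load the MCM helicase onto DNA, and in S phase CDC45 and the GINS complex turn it into the active helicase on which the polymerases, the PCNA clamp and its loader assemble. Many of these genes are transcribed in a pulse around the start of S phase under E2F factors, which are held back by the retinoblastoma (RB) proteins. In a growing culture their mRNA levels therefore depend both on how many cells are near S phase and on how much of each transcript such a cell holds, and in bulk RNA a smaller number of such cells and less RNA per cell cannot be told apart. Prolactin is a hormone that signals through its receptor to STAT5 in mammary epithelium.

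Library totals were alike in the groups, at 16211146 to 16646457 rounded counts in the PRL libraries and 16432849 to 17402348 in the control libraries, so 1 count was worth 0.0575 to 0.0617 CPM (the count scaled to a common library size) before TMM scaling. The CPM values given here are TMM-scaled, with factors of 1.08 to 1.11 in the PRL libraries and 0.848 to 0.955 in the control libraries, by which that worth is divided. PRL itself had 8277, 8097 and 7789 counts in the PRL libraries, against 3, 3 and 1 in the control libraries, the contrast the labels name. The 3 PRL libraries lay closer together than the 3 control libraries, with a median coefficient of variation over all genes tested of 4.59% in PRL libraries and 12.1% in control libraries. Luminal markers were abundant in every library, with a summed level of 15476 to 15954 CPM in the PRL libraries and 19810 to 25903 CPM in the control libraries, most of it keratins 8, 18 and 19. Of the 8 luminal markers, those keratins (KRT8 -0.60, KRT18 -0.73, KRT19 -0.47) and ESR1 (-0.35) were lower in PRL cells and PGR (0.85), FOXA1 (0.49) and GATA3 (0.23) higher, as log2 fold changes past the edgeR test with TMM scaling. On TPM the groups overlapped in ESR1 (24.2 to 26.6 TPM in PRL libraries and 18.7 to 26.4 TPM in control libraries) and KRT19 (5527 to 5538 TPM in PRL libraries and 5344 to 5864 TPM in control libraries). Summed fibroblast markers were at 71.4 to 72.1 CPM in the PRL libraries and 42.6 to 59.2 CPM in the control libraries, but almost all of this was COL1A1, and the other 5 markers together reached 0.285 to 0.661 CPM in the PRL libraries and 0.250 to 0.446 CPM in the control libraries. Leukocyte markers summed to 7.70 to 9.36 CPM in the PRL libraries and 6.74 to 9.06 CPM in the control libraries, endothelial markers to 0.881 to 1.08 CPM in the PRL libraries and 0.936 to 1.53 CPM in the control libraries, and basal markers to 11.7 to 11.8 CPM in the PRL libraries and 15.9 to 18.0 CPM in the control libraries. Of the basal markers tested, ACTA2 was lower (log2 fold change -1.01) and TP63 higher (1.25), and KRT5 and KRT14 were at or near 0 in every library. The part of these markers in the results below was not tested.

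Replication genes were lower in PRL cells as a group, at every step from origin licensing to chromatin assembly. Of the 49 genes, 42 were lower in the PRL libraries and 1, E2F8, was higher past an adjusted p of 0.05 in edgeR's quasi-likelihood test with Benjamini-Hochberg adjustment over 14076 genes. The 6 others, GINS3, PRIM1, RFC3, RPA1, TOPBP1 and TIMELESS, did not pass. The background was high: the same test called 30.5% of all genes tested lower and 32.4% higher, 62.9% in all. The median log2 fold change (PRL over control) was -0.73 over the 49 genes, a level 1.65-fold lower in PRL cells, and 0.01 over all genes tested. In 43 of the 49 genes every PRL library lay below every control library, which held for 33.5% of all genes tested, and in E2F8 every PRL library lay above, which held for 35.9%, so that the groups did not overlap in 69.5% of all genes tested. A fall of at least 2-fold past the test was found in 7 of the 49 genes, against 5.29% of all genes tested.

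**Figure D1:**
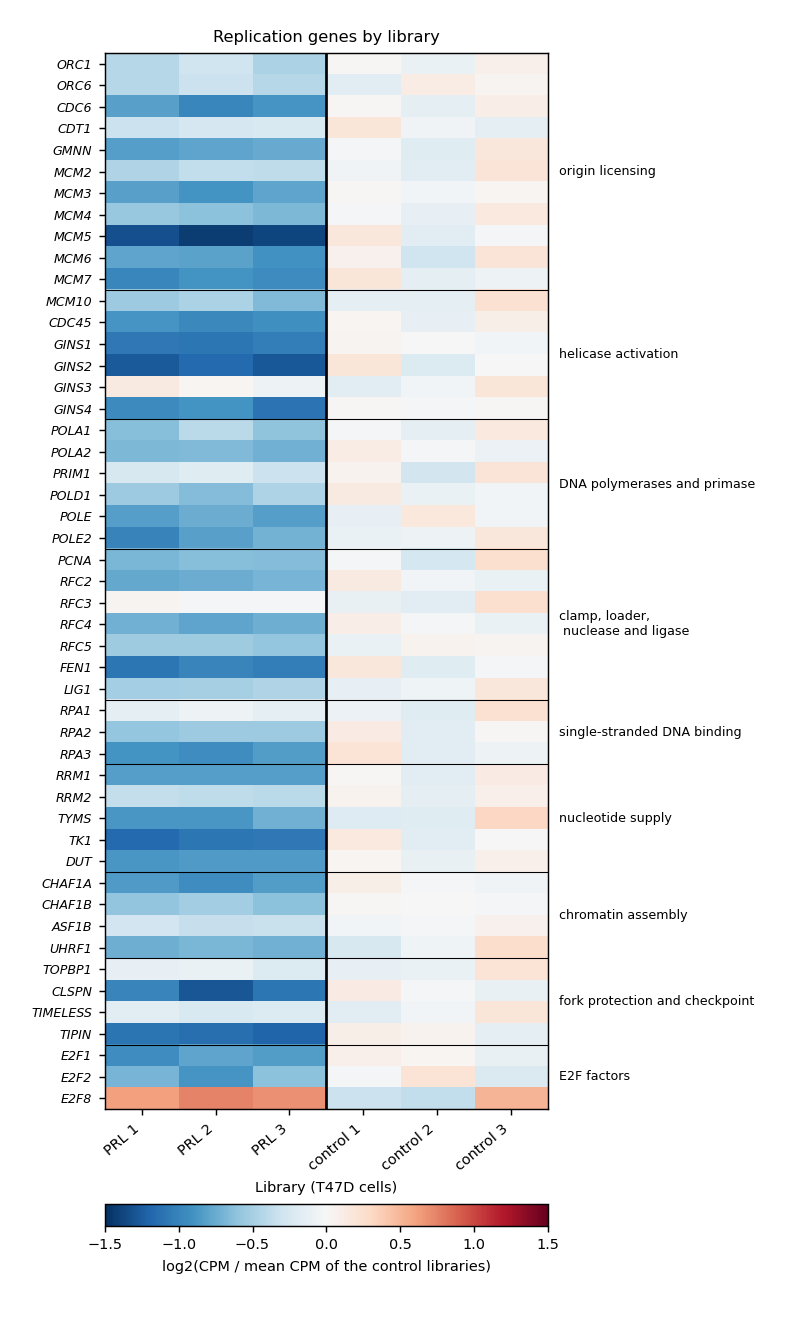
Log2 ratio of each library's CPM to the mean CPM of the 3 control libraries for the 49 replication genes, with PRL libraries left of control libraries and genes grouped by role. The PRL columns are blue for nearly all genes and deepest for MCM5, GINS2, TIPIN, CLSPN and TK1, while GINS3, RFC3 and RPA1 stay near the control level and E2F8 is red; on TPM values ORC1, ORC6, CDT1, MCM2, RFC5, RRM2 and ASF1B turn to slightly higher in PRL.

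How far the genes fell depended on how libraries were scaled against each other, and the libraries differed in composition. Ribosomal protein genes took 10.1, 10.5 and 10.6% of counts in the PRL libraries, against 18.7, 16.1 and 15.6% in the control libraries. TMM scaling, used throughout, put the median of all genes tested at 0.01, library totals put it at 0.26, the deposited FPKM values at 0.20 and the deposited TPM values at 0.39 (log2). Of all called genes 51.4% were higher in PRL cells with TMM scaling, 72.9% with library totals, 69.9% on FPKM and 83.8% on TPM, and 39.6% and 40.6% on TPM and FPKM centred on library medians. The distance of the replication genes from that moving median changed little, with their median lying 0.63 to 0.78 below the median of all genes tested in every setting run. Between scalings this distance could hardly change, since another scaling shifts all genes by nearly the same amount. It therefore does not show which scaling is right or that the fall holds under each. On TPM 23 of the 42 lower genes were still lower past the test, and 7 had a positive fold change (ORC1, ORC6, CDT1, MCM2, RFC5, RRM2 and ASF1B). All 42 lay below the TPM median of all genes, a position that such a shift also leaves nearly unchanged. Of all genes tested 11.0% were lower on TPM, against 30.5% with TMM scaling. Leaving the ribosomal protein genes out of the scaling left the calls at 42 lower and 1 higher. The share of all counts that fell on the 49 genes was 0.321, 0.321 and 0.316% in the PRL libraries, against 0.421, 0.424 and 0.466% in the control libraries, a value that uses no scaling factor but depends on all other transcripts.

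**Figure D2:**
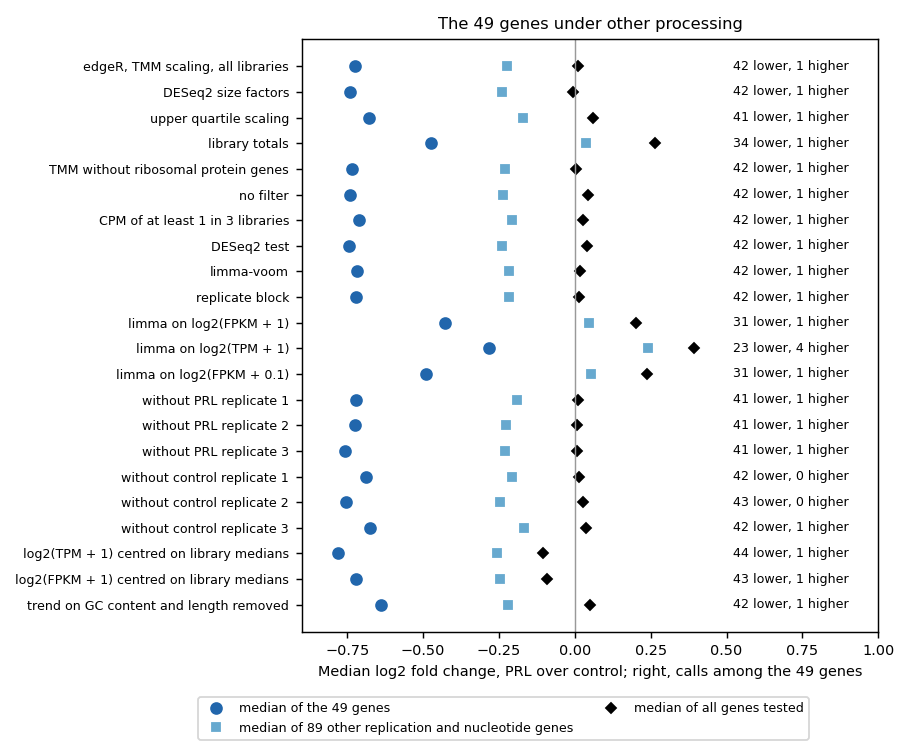
Median log2 fold change, PRL over control, of the 49 replication genes, 89 other replication and nucleotide genes and all genes tested, under each processing setting, with the calls among the 49 genes at the right. All medians shift together to the right with library totals, FPKM and TPM, where the replication genes lower past the test number 34, 31 and 23, against 42 with TMM scaling.

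Because E2F factors act at promoters, the sequence upstream of the members was searched for E2F-like words. RefSeq promoters (GRCh38.p14, 250 bases before to 50 after the start) were matched by symbol for 43 of the 49 genes. The words searched, on both strands, were TTTGGCGC, TTTCCCGC, TTTGCCGC and TTTCGCGC, and at least 1 of them was found in 22 of the 43 promoters (51.2%), against 908 of 27305 promoters in all (3.33%). Those 27305 are all promoters of the RefSeq set and were not limited to genes tested here, so they are an unlike background. The words occurred in 19 of 37 promoters of genes that were lower in PRL cells (51.4%) and in 3 of 6 promoters of the genes that were not. In 19 of the 43 promoters a word began within 60 bases before the start or after it. Of 89 other replication and nucleotide genes 74 had a promoter, and 9 of these promoters held an E2F-like word (12.2%). For a contrast with a later phase, 3 of 17 promoters of a mitosis list held an E2F-like word (17.6%), while 13 of 17 held TTTGAA or TTCGAA (76.5%), words like the cell cycle homology region of mitotic genes, which were found in 3 of 43 replication promoters (6.98%) and in 16.6% of all promoters. CCAAT was in 58.1% of replication promoters, 82.4% of mitosis promoters and 35.7% of all, and GGGCGG, a GC box, in 74.4%, 64.7% and 44.6%. A match is a description of letters and was not tested as a binding site.

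The 250 bases before the start are shown for a core helicase pair, a helicase activator, an E2F gene and, beside these 4 genes lower in PRL cells, 1 gene whose level did not pass the test. These 5 were chosen after their values were seen. Capitals mark the E2F-like words or their reverse complements, and all run 5′ to 3′ on the gene's strand. They are MCM3 at chr6:52284743-52284992 (minus strand), MCM6 at chr2:135876444-135876693 (minus), GINS2 at chr16:85688955-85689204 (minus), E2F1 at chr20:33686386-33686635 (minus) and RFC3 at chr13:33817899-33818148 (plus).
MCM3: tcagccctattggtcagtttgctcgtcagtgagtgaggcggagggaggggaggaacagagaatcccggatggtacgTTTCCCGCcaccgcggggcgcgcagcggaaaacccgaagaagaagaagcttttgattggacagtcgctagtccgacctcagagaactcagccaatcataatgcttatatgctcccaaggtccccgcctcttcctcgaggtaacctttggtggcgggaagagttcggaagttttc
MCM6: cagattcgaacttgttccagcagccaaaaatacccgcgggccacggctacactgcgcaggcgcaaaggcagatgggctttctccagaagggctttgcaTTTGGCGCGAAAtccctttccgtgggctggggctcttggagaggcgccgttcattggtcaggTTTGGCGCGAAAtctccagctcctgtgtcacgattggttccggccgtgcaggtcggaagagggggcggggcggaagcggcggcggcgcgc
GINS2: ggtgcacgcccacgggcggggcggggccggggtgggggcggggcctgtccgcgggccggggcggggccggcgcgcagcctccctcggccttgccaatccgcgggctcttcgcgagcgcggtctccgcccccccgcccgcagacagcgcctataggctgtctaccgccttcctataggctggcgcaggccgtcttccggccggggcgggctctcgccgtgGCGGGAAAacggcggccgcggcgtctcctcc
E2F1: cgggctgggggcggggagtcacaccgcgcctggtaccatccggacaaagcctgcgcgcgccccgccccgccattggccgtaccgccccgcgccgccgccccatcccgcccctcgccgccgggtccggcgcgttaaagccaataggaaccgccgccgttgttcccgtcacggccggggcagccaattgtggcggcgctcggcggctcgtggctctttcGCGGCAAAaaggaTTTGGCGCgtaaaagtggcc
RFC3: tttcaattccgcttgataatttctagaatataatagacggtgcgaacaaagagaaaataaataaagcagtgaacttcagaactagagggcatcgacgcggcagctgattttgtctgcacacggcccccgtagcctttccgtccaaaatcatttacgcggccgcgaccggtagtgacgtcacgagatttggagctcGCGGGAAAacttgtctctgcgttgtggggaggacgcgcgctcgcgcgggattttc
The MCM6 promoter held the same run, TTTGGCGCGAAA, at 2 places, each made of a word and the overlapping reverse complement of another. RFC3, which did not pass the test, held the same 8 letters, GCGGGAAA, as GINS2, which was among the genes with the deepest fall. A further match at MCM3 crosses the start and is not shown in full. GENCODE 29 places the 5′ ends of MCM3, GINS2, E2F1 and RFC3 further upstream than this RefSeq start, so those windows overlap the annotated gene there.

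Origin licensing was lower throughout, with 11 of 11 genes passing the test and a median log2 fold change of -0.79. MCM5, a subunit of the ring-shaped MCM2 to MCM7 helicase, was the most lowered of the 49 genes, with 38.9, 36.3 and 37.4 CPM in the PRL libraries, against 109.6, 87.0 and 94.8 CPM in the control libraries (log2 fold change -1.37 with SE 0.09, edgeR adjusted p = 1.29e-06). No control library came near a PRL library, and 1.83% of all genes tested had a lower fold change. MCM3, another subunit of the ring, was at 146, 139 and 149 CPM in the PRL libraries, against 260.5, 249.97 and 263 CPM in the control libraries (log2 fold change -0.83 with SE 0.07, edgeR adjusted p = 6.04e-06). Among the other subunits MCM7 had a log2 fold change of -0.94, MCM6 of -0.84 and MCM4 of -0.62, while MCM2 had -0.40 and turned to 0.062 on TPM. The MCM2 call was also lost on library totals (-0.15) and FPKM (-0.13), and MCM4 did not pass on TPM (-0.16). MCM5 lies at chr22:35400063-35425430 on the plus strand (GRCh38), with no exon overlap with another gene in GENCODE 29, whereas 23.6% of the exon bases of MCM2 overlap genes on the opposite strand, and whether strand was used in counting is not given in the sources used here.

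Other licensing genes were lower too, with the loading factor CDC6 at a log2 fold change of -0.89 and Geminin (GMNN), which holds back CDT1 after licensing, at -0.79. CDT1, the loading partner of CDC6, moved least of the 11 genes, at 127, 134 and 137 CPM in the PRL libraries, against 181, 154 and 144 CPM in the control libraries (log2 fold change -0.27 with SE 0.09, edgeR adjusted p = 0.0278), and was higher on TPM, at 0.19 (limma adjusted p = 0.0371). Its call was also lost with upper quartile scaling (-0.22) and library totals (-0.0048). It was lost without control library 1 (-0.16, edgeR adjusted p = 0.0512) and without PRL library 1, 2 or 3 (-0.24, -0.27 and -0.29, edgeR adjusted p = 0.113, 0.0760 and 0.0616). The origin recognition subunits ORC1 and ORC6 had log2 fold changes of -0.40 and -0.39. Both calls were lost on library totals (-0.15 and -0.14) and FPKM (-0.11 and -0.12), and both genes turned positive on TPM, at 0.051 and 0.067. Per length, the TPM ratio of GMNN to CDT1 in each library was 0.721, 0.700 and 0.698 in the PRL libraries, against 0.956, 1.02 and 1.34 in the control libraries, so the groups did not overlap. Such ratios within a library do not depend on how libraries are scaled; they and the other ratios below were chosen after the values were seen and got no test.

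The MCM ring is built from 1 copy of each subunit, but its mRNAs differed in level and in how far they fell. On the TPM scale MCM7 averaged 111 ± 2.58 in PRL libraries and 157 ± 4.27 in control libraries (mean ± SD, n = 3 each), and MCM3 99.6 ± 3.48 in PRL and 144 ± 11.7 in control libraries. MCM2 averaged 54.1 ± 0.866 TPM in PRL and 52.4 ± 10.4 TPM in control libraries, and MCM4 52 ± 3.18 TPM in PRL and 58.7 ± 9.78 TPM in control libraries. MCM5 averaged 20.0 ± 0.939 TPM in PRL and 37.6 ± 1.92 TPM in control libraries, and MCM6 17.02 ± 1.08 TPM in PRL and 22.2 ± 4.41 TPM in control libraries. Levels of MCM7 and MCM3 were thus the highest of the ring in both groups and MCM6 the lowest. Summed over the 6 subunits, TPM was 359.8, 354 and 349 in the PRL libraries, against 439.7, 463 and 511 in the control libraries. The TPM ratio of MCM5 to MCM2 was 0.395, 0.353 and 0.363 in the PRL libraries, against 0.848, 0.728 and 0.618 in the control libraries.

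Genes that turn the loaded ring into an active helicase were also lower, with 5 of 6 passing the test and a median log2 fold change of -0.95, the lowest among the roles. GINS1, a subunit of the GINS complex, was at 20.1, 19.9 and 20.6 CPM in the PRL libraries, against 43.3, 42.5 and 40.9 CPM in the control libraries (log2 fold change -1.06 with SE 0.08, edgeR adjusted p = 1.80e-06). GINS2, a partner in the same complex, was at 97.2, 103 and 95.98 CPM in the PRL libraries, against 264, 201 and 232 CPM in the control libraries (log2 fold change -1.23 with SE 0.10, edgeR adjusted p = 4.35e-06), and 2.66% of all genes tested had a lower fold change. GINS4 and CDC45, the other cofactor of the active helicase, had log2 fold changes of -0.98 and -0.92, and MCM10, which acts in origin firing, -0.56. MCM10 no longer passed the test with library totals, FPKM or TPM.

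GINS3 stood apart from its partners. It was at 13.3, 12.4 and 11.5 CPM in the PRL libraries, against 10.9, 11.8 and 13.7 CPM in the control libraries (log2 fold change 0.031 with SE 0.12, edgeR adjusted p = 0.831), and the groups overlapped. Over the settings run its log2 fold change lay between -0.11 and 0.39 and passed the test on TPM alone, as higher (limma adjusted p = 0.0339). In each library the TPM ratio of GINS2 to GINS3 was 6.09, 6.596 and 6.83 in the PRL libraries, against 18.7, 12.9 and 13.8 in the control libraries, and the control libraries lay above every PRL library. Summed TPM of the 4 subunits was 102, 103 and 94.7 in PRL libraries and 152, 149 and 169 in control libraries.

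**Figure D3:**
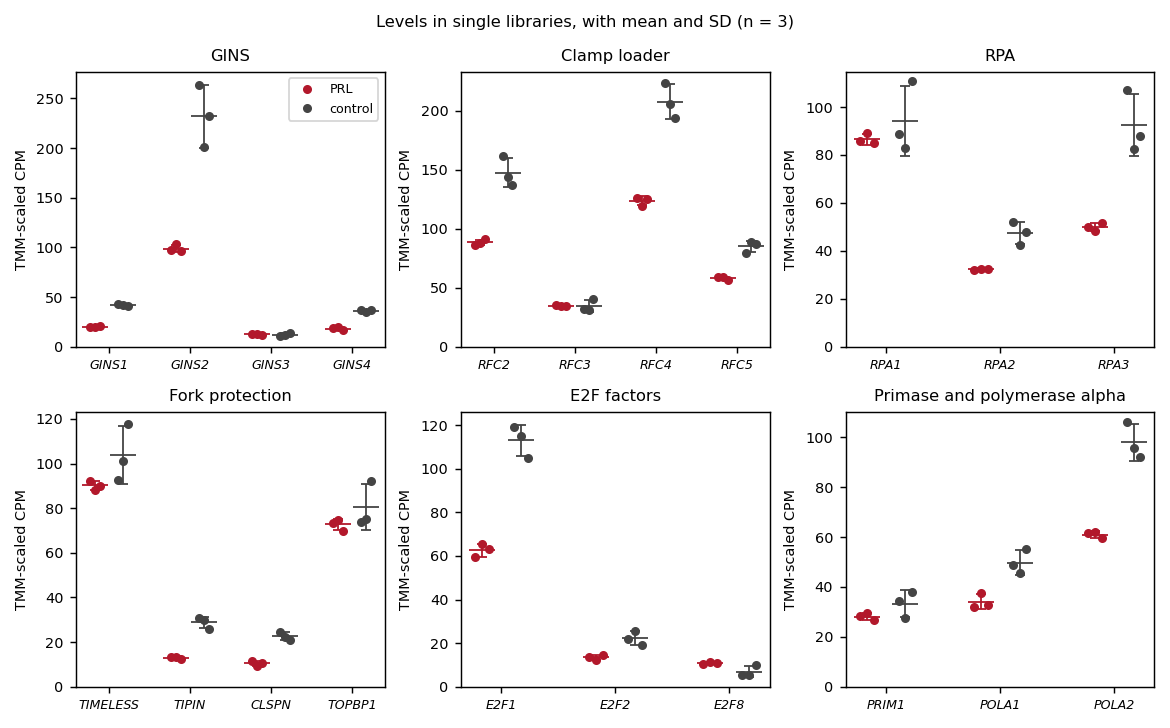
TMM-scaled CPM of each library (points), with the mean and SD of 3 libraries (bars), for 6 groups of related genes, with PRL left of control for each gene. GINS3, RFC3, RPA1, PRIM1, TIMELESS and TOPBP1 lie close to the control level while partners such as GINS2, RFC4, RPA3, POLA2 and TIPIN lie below it, and E2F8 lies above; RFC5 turns to 0.067 on TPM. CPM is not corrected for length, so heights compare libraries and not genes.

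Of the polymerase and primase genes 5 of 6 were lower, with a median log2 fold change of -0.61. POLE, the catalytic subunit of the leading-strand polymerase epsilon, was at 71.9, 75.8 and 71.7 CPM in the PRL libraries, against 117, 141 and 123 CPM in the control libraries (log2 fold change -0.80 with SE 0.09, edgeR adjusted p = 2.63e-05). POLA2, the second subunit of polymerase alpha, which starts new strands together with primase, was at 61.5, 62.0 and 59.5 CPM in the PRL libraries, against 106, 95.7 and 92.0 CPM in the control libraries (log2 fold change -0.68 with SE 0.08, edgeR adjusted p = 3.82e-05). In both genes the groups were apart, but neither passed the test on TPM, where their log2 values were -0.28 and -0.14. POLE2, the partner of POLE, had a log2 fold change of -0.83, POLD1, the catalytic subunit of polymerase delta, -0.55, and POLA1, the catalytic subunit of polymerase alpha, -0.54. On TPM POLD1 (-0.088) and POLA1 (-0.084) did not pass either, and POLA1 lost its call on FPKM (-0.25). In POLA2 35.1% of exon bases overlap another annotated gene on the same strand, so part of its count is uncertain.

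PRIM1, the catalytic subunit of primase, did not pass the test, at 28.3, 29.5 and 26.6 CPM in the PRL libraries, against 34.5, 27.4 and 38.0 CPM in the control libraries (log2 fold change -0.24 with SE 0.12, edgeR adjusted p = 0.0884). Control library 2 lay within the PRL range, and without it the log2 fold change was -0.37 (edgeR adjusted p = 0.00739). On library totals, FPKM and TPM its fold change was positive, at 0.013, 0.022 and 0.21. PRIM1 also shares 16.2% of its exon bases with other genes on the same strand.

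The sliding clamp, its loader and the enzymes that process Okazaki fragments were lower in 6 of 7 genes, with a median log2 fold change of -0.66. FEN1, the nuclease that trims the flaps of lagging-strand fragments, was at 113, 121 and 117 CPM in the PRL libraries, against 271, 213 and 239 CPM in the control libraries (log2 fold change -1.04 with SE 0.09, edgeR adjusted p = 8.99e-06). RFC4, a subunit of the loader that opens the clamp, was at 126, 119.7 and 126 CPM in the PRL libraries, against 223, 206 and 194 CPM in the control libraries (log2 fold change -0.75 with SE 0.08, edgeR adjusted p = 2.18e-05). The clamp PCNA, which at 197 ± 2.43 TPM in PRL libraries and 229 ± 51.0 TPM in control libraries was among the highest of the 49 genes, had a log2 fold change of -0.66, which did not pass on TPM, and has pseudogenes with which reads could be shared. RFC2 had -0.74 and RFC5 -0.55, a call lost on FPKM (-0.12) and on TPM, where the sign turned (0.067). The ligase LIG1 had -0.49, a call lost on library totals (-0.23), FPKM (-0.22) and TPM (-0.041).

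RFC3, a loader subunit beside RFC4, did not pass, at 35.8, 34.3 and 34.2 CPM in the PRL libraries, against 32.1, 31.2 and 40.9 CPM in the control libraries (log2 fold change 0.00093 with SE 0.11, edgeR adjusted p = 0.994). The PRL libraries lay inside the span of the control libraries. Over the settings run its log2 fold change lay between -0.076 and 0.47 and passed the test on TPM alone, as higher (limma adjusted p = 0.0116). The TPM ratio of RFC4 to RFC3 was 6.04, 5.99 and 6.26 in the PRL libraries, against 11.8, 11.6 and 8.36 in the control libraries, with the groups apart.

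RPA, the heterotrimer that coats single-stranded DNA, was lower in 2 of its 3 genes. RPA3, the smallest subunit, was at 49.8, 48.3 and 51.6 CPM in the PRL libraries, against 107, 82.7 and 87.9 CPM in the control libraries (log2 fold change -0.89 with SE 0.10, edgeR adjusted p = 3.25e-05). RPA2, the middle subunit, was at 31.9, 32.6 and 32.6 CPM in the PRL libraries, against 51.9, 42.6 and 48.0 CPM in the control libraries (log2 fold change -0.55 with SE 0.09, edgeR adjusted p = 0.000311) and did not pass on TPM. RPA1, the large DNA-binding subunit, was at 85.7, 88.98 and 84.9 CPM in the PRL libraries, against 88.7, 83.0 and 111 CPM in the control libraries (log2 fold change -0.12 with SE 0.10, edgeR adjusted p = 0.325), with overlapping groups. Its fold change was positive on library totals, FPKM and TPM, at 0.13, 0.13 and 0.33, none past the test. In each library the TPM ratio of RPA3 to RPA1 was 1.0004, 0.941 and 1.04 in the PRL libraries, against 2.06, 1.71 and 1.36 in the control libraries.

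All 5 genes of nucleotide supply were lower, with a median log2 fold change of -0.82. TK1, the S-phase kinase that salvages thymidine, was at 135, 144 and 145 CPM in the PRL libraries, against 337, 271 and 302 CPM in the control libraries (log2 fold change -1.10 with SE 0.09, edgeR adjusted p = 4.82e-06), and 4.04% of all genes tested had a lower fold change. DUT, which breaks down dUTP and so keeps uracil out of DNA, was at 70.7, 72.0 and 72.2 CPM in the PRL libraries, against 133, 119.9 and 136 CPM in the control libraries (log2 fold change -0.86 with SE 0.08, edgeR adjusted p = 7.22e-06). DUT has 8 pseudogenes named after it, with which reads could be shared. Thymidylate synthase TYMS had a log2 fold change of -0.82, and 46.6% of its exon bases overlap opposite-strand genes. Ribonucleotide reductase, which makes deoxynucleotides, is built from the large subunit RRM1 and a small subunit, RRM2 in S phase or RRM2B outside it. RRM1 had a log2 fold change of -0.82 and RRM2 of -0.38. The RRM2 call was lost on library totals (-0.13) and FPKM (-0.12), and its sign turned on TPM (0.070). In RRM2 20.2% of exon bases overlap another annotated gene on the same strand. RRM2 also has 3 pseudogenes named after it, with which reads could be shared. The TPM ratio of RRM2 to RRM1 was 2.25, 2.20 and 2.16 in the PRL libraries, against 1.47, 1.46 and 1.46 in the control libraries, with the PRL libraries above every control library.

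A wider list of 27 nucleotide genes gave 18 lower and 4 higher, where 30.5% and 32.4% of all genes tested were. Its median log2 fold change was -0.58. SAMHD1, which breaks down deoxynucleotides, was among the higher genes, at 111, 105 and 104 CPM in the PRL libraries, against 30.3, 31.6 and 33.1 CPM in the control libraries (log2 fold change 1.75 with SE 0.08, edgeR adjusted p = 3.81e-08). Each PRL library held over 3 times the level of any control library. The 3 other genes that rose, named after their values were seen, were the mitochondrial kinase TK2 at a log2 fold change of 0.89, the deoxycytidine kinase DCK at 0.69 and RRM2B at 0.62. The TPM ratio of RRM2 to RRM2B was 8.53, 8.47 and 8.66 in the PRL libraries, against 17.9, 17.6 and 16.0 in the control libraries. Thymidylate kinase DTYMK, also named after its value was seen, had the largest fall of the nucleotide genes, at 38.7, 39.1 and 43.5 CPM in the PRL libraries, against 143, 114 and 101 CPM in the control libraries (log2 fold change -1.56 with SE 0.12, edgeR adjusted p = 3.27e-06).

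**Figure D4:**
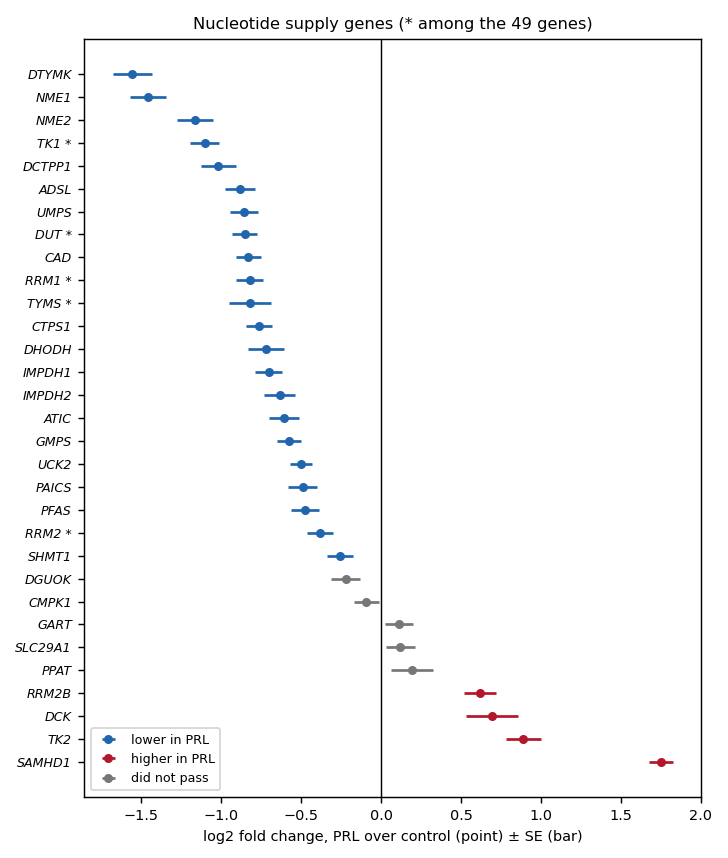
Log2 fold change, PRL over control, with its SE, for the 5 nucleotide supply genes among the 49 (marked with an asterisk) and 26 of 27 other nucleotide genes, sorted from the largest fall at the top. DTYMK lies furthest left and SAMHD1 furthest right, and RRM2 (-0.38, but 0.070 on TPM) and RRM2B (0.62) lie on opposite sides of 0.

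The 4 genes that act on new chromatin were all lower, with a median log2 fold change of -0.65. CHAF1A, the large subunit of the histone chaperone CAF-1, which places new histones behind the fork, was at 38.1, 35.7 and 38.3 CPM in the PRL libraries, against 72.6, 66.9 and 65.7 CPM in the control libraries (log2 fold change -0.87 with SE 0.08, edgeR adjusted p = 6.89e-06). CHAF1B, its middle subunit, was at 37.9, 39.8 and 37.5 CPM in the PRL libraries, against 57.8, 57.7 and 56.2 CPM in the control libraries (log2 fold change -0.58 with SE 0.07, edgeR adjusted p = 6.28e-05). Both groups of libraries were tight and apart in both genes, though CHAF1B no longer passed on FPKM or TPM. UHRF1, which recruits the maintenance DNA methyltransferase to new DNA, had -0.71 and did not pass on TPM (-0.21). The histone chaperone ASF1B had -0.32, a call lost on library totals (-0.069) and FPKM (-0.064), and turned to 0.13 on TPM. Among 11 other genes of chromatin assembly and histone supply 4 were lower and 1 higher, where 30.5% and 32.4% of all genes tested were. The median log2 fold change of these 11 genes was -0.11. NASP, a chaperone of histone H3 and H4, was at 102, 99.3 and 101 CPM in the PRL libraries, against 245, 223 and 199 CPM in the control libraries (log2 fold change -1.14 with SE 0.09, edgeR adjusted p = 2.60e-06), and SSRP1, a subunit of the FACT complex, had -0.67. The higher gene, named after its value was seen, was NPAT, which drives histone gene transcription, at 0.28 (edgeR adjusted p = 0.0274), a call lost without PRL library 1, 2 or 3 (0.29, 0.28 and 0.27, edgeR adjusted p = 0.0722, 0.0808 and 0.0976) or control library 1 or 2 (0.21 and 0.27, edgeR adjusted p = 0.0678 and 0.0605).

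Of the 4 fork protection and checkpoint genes 2, TIPIN and CLSPN, were lower, and TIMELESS and TOPBP1 did not pass. TIPIN, which binds TIMELESS at the fork, was at 13.5, 13.2 and 12.6 CPM in the PRL libraries, against 30.7, 29.8 and 26.0 CPM in the control libraries (log2 fold change -1.14 with SE 0.10, edgeR adjusted p = 5.91e-06). CLSPN (Claspin), which carries the signal from ATR to CHEK1, was at 11.4, 9.31 and 10.7 CPM in the PRL libraries, against 24.6, 22.4 and 20.9 CPM in the control libraries (log2 fold change -1.11 with SE 0.11, edgeR adjusted p = 1.59e-05). In TIPIN 21.0% of exon bases overlap a ribosomal protein pseudogene on the same strand, and the ribosomal protein genes were themselves lower in share in PRL libraries, and the part of that overlap in the TIPIN fold change was not tested.

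TIMELESS, the partner of TIPIN, was at 92.3, 88.3 and 90.2 CPM in the PRL libraries, against 92.5, 101 and 118 CPM in the control libraries (log2 fold change -0.20 with SE 0.09, edgeR adjusted p = 0.0788). All PRL libraries lay below all control libraries by a narrow margin at control library 1, and without that library the log2 fold change was -0.27 (edgeR adjusted p = 0.0153). It was positive on library totals, FPKM and TPM, at 0.048, 0.058 and 0.25, none past the test. TOPBP1, which activates ATR, was at 73.5, 74.8 and 70.0 CPM in the PRL libraries, against 73.8, 75.0 and 92.3 CPM in the control libraries (log2 fold change -0.14 with SE 0.09, edgeR adjusted p = 0.206), where control library 3 stood above the other 5 libraries. Its sign was also positive on library totals, FPKM and TPM, at 0.11, 0.13 and 0.32. The TPM ratio of TIPIN to TIMELESS was 0.382, 0.424 and 0.371 in the PRL libraries, against 1.13, 0.826 and 0.704 in the control libraries. Of 9 other checkpoint genes 5 were lower and 1 higher, where 30.5% and 32.4% of all genes tested were. The phosphatase CDC25A was at 13.2, 11.6 and 12.6 CPM in the PRL libraries, against 27.2, 20.7 and 23.5 CPM in the control libraries (log2 fold change -0.93 with SE 0.12, edgeR adjusted p = 7.42e-05). The kinase CHEK1 had a log2 fold change of -0.60. CHEK1 did not pass on TPM (-0.28). The higher checkpoint gene, named after its value was seen, was the clamp loader RAD17 at 0.48.

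Of the 3 E2F genes among the 49, 2 were lower and 1 higher. E2F1, an activator of S-phase genes, was at 59.4, 65.3 and 63.3 CPM in the PRL libraries, against 119, 115 and 105 CPM in the control libraries (log2 fold change -0.85 with SE 0.08, edgeR adjusted p = 1.02e-05). E2F2, another activator, was at 13.8, 12.1 and 14.6 CPM in the PRL libraries, against 22.0, 25.7 and 19.2 CPM in the control libraries (log2 fold change -0.73 with SE 0.13, edgeR adjusted p = 0.000558) and did not pass on TPM. E2F8, an atypical E2F that represses E2F targets, was at 10.5, 11.5 and 11.0 CPM in the PRL libraries, against 5.49, 5.29 and 9.80 CPM in the control libraries (log2 fold change 0.68 with SE 0.21, edgeR adjusted p = 0.0147). Control library 3 stood close to the PRL libraries, and the call was lost without control library 1 (0.55, edgeR adjusted p = 0.0588) and without control library 2 (0.51, edgeR adjusted p = 0.0758). Per length, the TPM ratio of E2F1 to E2F8 was 7.30, 7.32 and 7.53 in the PRL libraries, against 27.8, 27.8 and 13.9 in the control libraries, so that no PRL library reached the lowest control ratio.

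Among 13 other E2F, RB and MuvB genes 4 were lower and 4 higher, where 30.5% and 32.4% of all genes tested were. The median log2 fold change of this list was -0.01. MYBL2, a MYB family factor that joins the MuvB core, was at 197, 213 and 199 CPM in the PRL libraries, against 495, 428 and 419 CPM in the control libraries (log2 fold change -1.14 with SE 0.09, edgeR adjusted p = 2.98e-06). RBL2 (p130), the RB family member of resting cells, was at 53.0, 53.0 and 49.7 CPM in the PRL libraries, against 17.6, 21.9 and 31.1 CPM in the control libraries (log2 fold change 1.14 with SE 0.16, edgeR adjusted p = 0.000151). E2F5, an E2F that pairs with RBL2 in repressive complexes, was at 22.2, 23.7 and 19.7 CPM in the PRL libraries, against 6.17, 7.78 and 13.2 CPM in the control libraries (log2 fold change 1.27 with SE 0.22, edgeR adjusted p = 0.000506). In both of these higher genes control library 3 was the nearest to the PRL libraries. Of the exon bases 18.2% in RBL2 and 18.6% in E2F5 overlap opposite-strand genes. The other 2 higher genes, named after their values were seen, were the repressor E2F7 at a log2 fold change of 0.78 and RB1 at 0.68. Of 3 more E2F genes, also named after their values were seen, the activator E2F3 (-0.013) and the repressor E2F4 (-0.066) did not pass and were higher past the test on TPM (0.42 and 0.38), and E2F4 was so on FPKM too (0.19). The repressor E2F6 was lower at -0.23 (edgeR adjusted p = 0.0322) but turned positive on library totals (0.024), FPKM (0.0072) and TPM (0.19). It lost its call with upper quartile scaling (-0.18), DESeq2 (-0.25) and the replicate block (-0.23), and without PRL library 1, 2 or 3 (-0.19, -0.24 and -0.26) or control library 1 (-0.21), at edgeR adjusted p = 0.155, 0.0937, 0.0637 and 0.0612.

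**Figure D5:**
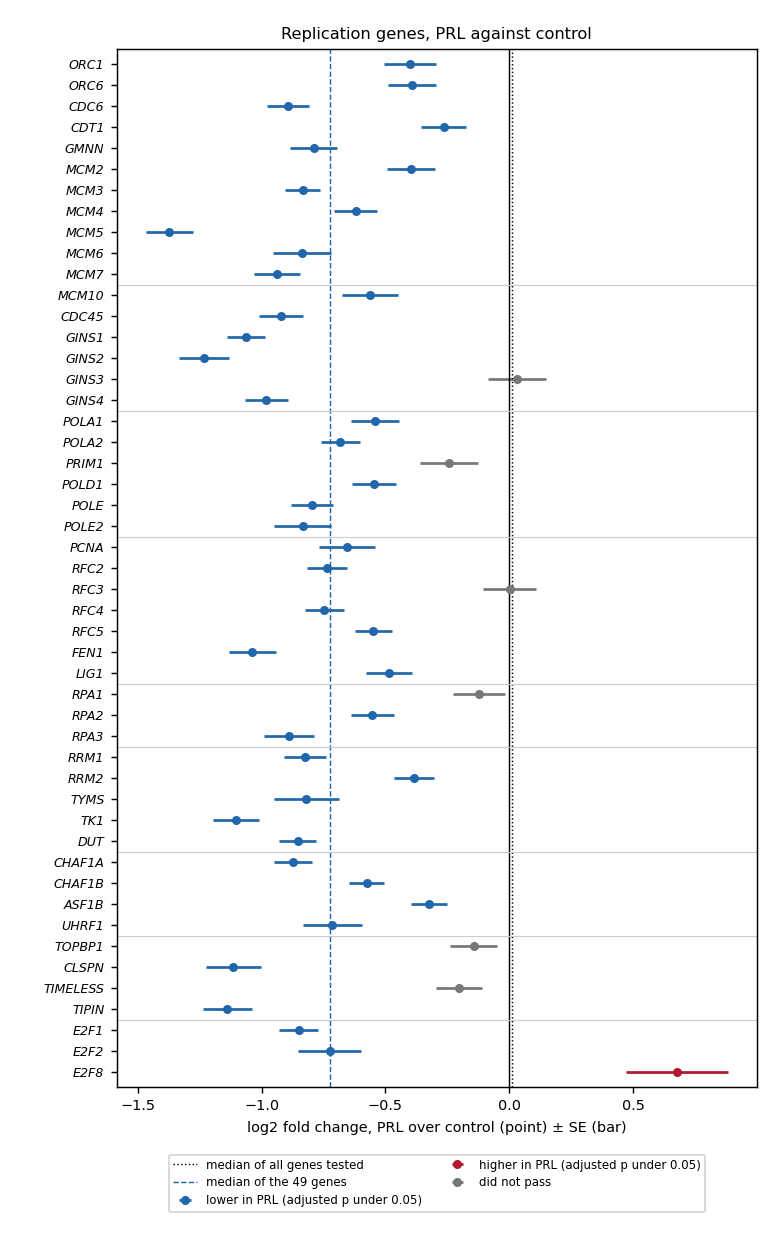
Log2 fold change, PRL over control, with its SE, for the 49 replication genes grouped by role, with the medians of the 49 genes (dashed, -0.73) and of all genes tested (dotted, 0.01). The 42 blue genes lie left of 0, the 6 grey genes did not pass and E2F8 lies right of 0; on TPM ORC1, ORC6, CDT1, MCM2, RFC5, RRM2 and ASF1B lie right of 0.

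Other genes of the same pathways were read from the same fit. Of 89 other replication and nucleotide genes tested 43 were lower and 12 higher, 34 did not pass, and the median log2 fold change was -0.22, against -0.73 for the 49 genes and 0.01 for all genes tested. The same fit called 30.5% of all genes tested lower and 32.4% higher. Without control library 3, 23 of the 89 were higher, where 5264 of 14339 genes tested were. The list's median turned positive on library totals (0.037), FPKM (0.046) and TPM (0.24). On TPM 20 of the 89 were lower and 41 higher, where 1375 and 7118 of 12494 genes tested were. The lists were chosen with earlier results of these data known, and the difference between them was not tested. Among 14 other origin and helicase genes 4 were lower, where 30.5% of all genes tested were, and the median log2 fold change was -0.08. The helicase RECQL4 was at 76.3, 77.4 and 70.1 CPM in the PRL libraries, against 130.1, 131 and 110.0 CPM in the control libraries (log2 fold change -0.73 with SE 0.09, edgeR adjusted p = 5.58e-05). MCM8, a meiosis and repair relative of the MCM subunits, had -0.65, a call lost on FPKM (-0.079) and TPM (0.10). Among 15 other fork genes 8 were lower and 2 higher, with POLD2, the second subunit of polymerase delta, at 244, 249 and 256 CPM in the PRL libraries, against 522, 432 and 415 CPM in the control libraries (log2 fold change -0.87 with SE 0.10, edgeR adjusted p = 3.27e-05) and CHTF18, a subunit of an alternative clamp loader, at -0.78. The higher ones were RFC1, the large subunit of the clamp loader, at 0.39, and topoisomerase TOP1 at 0.31, both named after their values were seen. The TOP1 call was lost without PRL library 1 (0.31), PRL library 2 (0.295) or control library 2 (0.25), at edgeR adjusted p = 0.0525, 0.0630 and 0.0700.

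Genes of mitosis, the later phase of the cycle, were lower in 14 of 20, against 30.5% of all genes tested, with a median log2 fold change of -0.54. The spindle checkpoint kinase AURKB was at 53.9, 57.7 and 61.5 CPM in the PRL libraries, against 133, 131 and 109 CPM in the control libraries (log2 fold change -1.11 with SE 0.09, edgeR adjusted p = 5.45e-06), and CDC20, which switches on the ubiquitin ligase of anaphase, was at 113, 112 and 109 CPM in the PRL libraries, against 289, 249 and 219 CPM in the control libraries (log2 fold change -1.18 with SE 0.10, edgeR adjusted p = 5.60e-06). On TPM the list had 2 lower and 2 higher genes, and its median log2 fold change was -0.11, against 0.39 for all genes tested. Of 12494 genes tested on TPM 1375 were lower and 7118 higher.

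Between replicates, the replication genes, like all genes tested, were tighter in PRL cells. Their median coefficient of variation was 3.46% in PRL libraries and 10.0% in control libraries, and 45 of the 49 were more variable in controls. RRM1 was the tightest case, at 71.7, 72.0 and 71.7 CPM in the PRL libraries, against 129, 114 and 139 CPM in the control libraries. Control library 3 was the control nearest to the PRL mean in 49.95% of all genes tested, but in 12 of the 49 replication genes, where control library 2 was nearest in 24 and control library 1 in 13. For the replication genes control library 3 was the highest control in 27 cases and control library 2 the lowest in 26. These 2 counts, and that of genes more variable in controls, were not made over all genes tested. They therefore have no background and mark nothing particular to the replication genes. Leaving out any 1 library gave 41 to 43 genes lower and at most 1 higher.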

How the data were processed

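Total RNA of 6 T47D libraries, 3 PRL and 3 control, had been sequenced by Illumina protocols according to the labels. HISAT2 2.1.0, Bowtie2 2.3.4.3 and the build GRCh38.p13 are named by the submitters' processing notes. Counter, annotation and strand setting: not given in the sources used here. Per the file headers, the authors deposited 1 table of estimated read counts, FPKM and TPM, both normalized by the authors, for 17891 genes. The deposited expected counts (44.1% to 45.9% not whole) were rounded. The authors' 6 group-mean columns were not used.

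Genes were tested in R 4.3.3 with edgeR 4.0.16 (filterByExpr by group, TMM, robust quasi-likelihood fit, group as the only term) and Benjamini-Hochberg adjustment over 14076 genes at 0.05. The SE is the size of the log2 fold change over the square root of its F value. CPM values are TMM-scaled, and FPKM or TPM were tested with limma 3.58.1 on log2(value + 1), or + 0.1 for FPKM, among genes with a mean of at least 1. These log2 scales understate changes of low genes. Alternatives were DESeq2 1.42.0, limma-voom, other scalings and filters, a replicate block and leaving out each library. Centring TPM and FPKM on library medians and removing a trend on GC content and length (mgcv 1.9.3, values for 98.7% of genes tested and all 49 members) were chosen after seeing the data. The edgeR step was tested on simulated data.

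The chi-square per gene between libraries was 1.66 to 2.17 among PRL and 12.7 to 24.4 among control libraries, so none agreed within sampling noise. Replicate numbers did not pair the libraries: deviations of same-numbered libraries correlated at -0.12, 0.02 and -0.08. Gene positions and overlaps came from GENCODE 29 (GRCh38), promoters from RefSeq (GRCh38.p14). Values per library are given for the 2 members of each role with the smallest adjusted p and for every member that did not pass or was higher. Of each other list the 2 genes with the smallest adjusted p and those at least 2-fold higher are named, others only as stated; 1 gene of the nucleotide list is counted but not reported here. The members and lists were chosen with earlier results of these data known.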

Additional observations from a re-analysis of the deposited data

How the results depend on the processing

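Of the 42 replication genes lower in PRL cells, 23 were lower past the test under each of the 21 alternatives run, among them MCM5, GINS2, FEN1, TK1, TIPIN and E2F1. TPM moved the counts furthest: 23 of the 49 genes were lower and 4 higher, 20 and 41 of 89 other replication and nucleotide genes, 2 and 2 of the mitosis list, and 1375 and 7118 of all genes tested, against 4300 and 4554 with TMM scaling. On TPM 12494 genes were tested, of which 11.0% were lower, against 30.5% of 14076 with TMM scaling. Of 14076 genes tested on library totals 2394 were lower and 6431 higher. Of 11840 tested on FPKM 2356 were lower and 5481 higher on log2(FPKM + 1), and 2343 and 5416 on log2(FPKM + 0.1). In these 3 settings 26, 28 and 27 of the 89 other genes were higher, against 12 with TMM scaling. Leaving out 1 library gave 0 to 1 of the 49 genes and 10 to 23 of the 89 higher, the last without control library 3. Of all genes 3929 of 14254 (without PRL library 2) to 5264 of 14339 (without control library 3) were then higher. A replicate block left the replication genes at 42 lower and 1 higher, with 4108 lower and 4423 higher in all, and changed no call among the members; E2F6 lost its call (-0.23, edgeR adjusted p = 0.0861).

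Signs turned on TPM for ORC1 (0.051), ORC6 (0.067), CDT1 (0.19), MCM2 (0.062), RFC5 (0.067), RRM2 (0.070), ASF1B (0.13), MCM8 (0.10), PRIM1 (0.21), RPA1 (0.33), TOPBP1 (0.32) and TIMELESS (0.25). The last 4 were also positive on library totals (0.013, 0.13, 0.11 and 0.048), log2(FPKM + 1) (0.022, 0.13, 0.13 and 0.058) and log2(FPKM + 0.1) (0.024, 0.14, 0.14 and 0.061). GINS3 was negative with centred TPM (-0.11) or FPKM (-0.097), and RFC3, at 0.00093 with TMM scaling, with DESeq2 size factors (-0.015), TMM without ribosomal protein genes (-0.0059), no filter (-0.013), DESeq2 (-0.017), centred TPM (-0.032) or FPKM (-0.023). Outside the members E2F3, E2F4 and E2F6 turned positive on library totals (0.24, 0.19 and 0.024), log2(FPKM + 1) (0.23, 0.19 and 0.0072), log2(FPKM + 0.1) (0.28, 0.19 and 0.0080) and TPM (0.42, 0.38 and 0.19), and E2F3 with upper quartile scaling (0.038) and CPM of at least 1 in 3 libraries (0.0033). Leaving out 1 library moved E2F3 between -0.064 and 0.11, GINS3 between -0.034 and 0.15, RFC3 between -0.076 and 0.15 and RPA1 between -0.21 and 0.029. With the trend on GC content and length removed ORC6 (-0.18, edgeR adjusted p = 0.176) and ASF1B (-0.17, edgeR adjusted p = 0.118) lost their calls, TIMELESS and TOPBP1 gained one, and 55.0% of called genes were higher. TIMELESS was also lower past the test with centred TPM and FPKM, and PRIM1 with centred TPM. The cause of these shifts was not tested. The lowest count of a member in a library was 81, and depth was not varied.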
